A study of Drosophila melanogaster with 2 samples.

Results

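The 290 transfer RNA (tRNA) genes on the chromosome arms 2L, 2R, 3L, 3R, 4 and X of Drosophila melanogaster were examined as sites near peaks of the tagged repressor E(spl)mβ-HLH. They are all the genes of biotype tRNA on these 6 arms in the Ensembl annotation, among 18164 annotated genes of any kind apart from transposable elements. The peaks came from chromatin immunoprecipitation sequencing of whole embryos of both sexes, 0 to 24 hours old, from 1 transgenic line that carries E(spl)mβ-HLH fused at its C terminus to GFP. Both biological replicates, numbered 1 and 3, belonged to 1 group of 2, and no sample without the tagged protein was analysed here, so signal of the factor and signal common to immunoprecipitations in general cannot be told apart. The free-text description of both samples speaks of an input control, while the antibody field and the name of the assay point to an immunoprecipitation. Every value below carries that uncertainty of the labels. Whole embryos of this age range mix many tissues, so a peak cannot be assigned to a cell type.

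E(spl)mβ-HLH belongs to the Hairy/E(spl) family of basic helix-loop-helix repressors, which act downstream of Notch and bind E-box-like words in DNA. tRNA genes are transcribed by RNA polymerase III from promoters that lie inside the gene. The factor TFIIIC contacts the internal A box and B box and recruits TFIIIB to the DNA just upstream of the transcription start, and TFIIIB in turn brings in the polymerase. The genes form families that share an amino acid and an anticodon, and many members are exact copies scattered over the chromosomes.

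The genes differed in their surroundings. A gene was called clustered where another tRNA gene lay within 1000 bp, end to end, and isolated otherwise. This gave 105 isolated genes and 185 clustered genes in 69 loci, of which 43 held 2 genes and the largest held 7. A gene was called near where the transcription start site (TSS) of a protein-coding transcript lay within 1000 bp of it, which held for 80 genes, and far otherwise, which held for 210. Introns of coding genes held 127 of the tRNA genes, 7 overlapped a coding gene's exon and 156 lay outside coding genes. The median length was 73 bp (71 to 186 bp), and the 16 genes with an annotated intron were the 10 Tyr-GTA, the 4 Leu-CAA and the 2 Ile-TAT genes. Identical copies were common: 238 genes had at least 1 other gene of the same sequence, and the 290 genes made up 95 distinct sequences.

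The sequences of 8 genes are given from RefSeq, on the dm6 assembly, 5′ to 3′, with the A box word TNGCNNAGT and the B box word GTTCNANNC in capitals where the gene holds them. They were chosen because the results below turn on them. The first is the gene beside the strongest summit, followed by 3 isolated genes near a coding TSS. Next come 1 gene at a summit between clustered genes, 1 gene of a long cluster with a summit and 1 of a long cluster with none. The last is 1 isolated gene far from any coding TSS.
tRNA:Tyr-GTA-1-8, chr3R:8669081-8669174, minus strand: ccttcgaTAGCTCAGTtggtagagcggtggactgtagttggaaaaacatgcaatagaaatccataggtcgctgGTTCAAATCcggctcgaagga
tRNA:Val-CAC-2-5, chr3R:19672277-19672349, minus strand: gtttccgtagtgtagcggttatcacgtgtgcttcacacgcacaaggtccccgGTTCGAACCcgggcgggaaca
tRNA:Leu-TAA-2-1, chr3R:24112964-24113047, plus strand: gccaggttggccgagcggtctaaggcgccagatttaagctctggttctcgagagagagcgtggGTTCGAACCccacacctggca
tRNA:Ser-AGA-2-4, chr2L:3173003-3173084, minus strand: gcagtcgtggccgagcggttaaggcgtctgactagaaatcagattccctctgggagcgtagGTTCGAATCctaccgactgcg
tRNA:Gln-TTG-1-3, chr3R:26947512-26947583, minus strand: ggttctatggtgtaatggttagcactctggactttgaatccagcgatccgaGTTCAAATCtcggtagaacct
tRNA:Cys-GCA-1-2, chr3L:3095991-3096062, plus strand: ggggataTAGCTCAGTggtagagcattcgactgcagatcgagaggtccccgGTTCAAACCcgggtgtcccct
tRNA:Arg-TCG-2-1, chrX:14014814-14014886, plus strand: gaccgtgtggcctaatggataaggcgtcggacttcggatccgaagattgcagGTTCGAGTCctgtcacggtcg
tRNA:Leu-TAA-4-1, chr3R:24265259-24265342, plus strand: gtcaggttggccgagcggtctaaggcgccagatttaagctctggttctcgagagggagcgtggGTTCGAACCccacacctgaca

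Across all 290 genes the B box word was present in 271 (93.4%) and the A box word, as spelled here, in 102 (35.2%). The 2 Leu-TAA genes shown were the same at 81 of 84 bases and differed in their surroundings, since tRNA:Leu-TAA-2-1 lay 239 bp from a coding TSS and tRNA:Leu-TAA-4-1 lay 1417 bp from one.

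tRNA genes lay near summits more often than positions of the arms in general, in the reproducible list and in the longer pooled list. The reproducible list, thresholded by the authors on the irreproducible discovery rate (IDR) between replicates, held 5744 peaks, and the pooled list of both replicates held 30000 and reached into background. The IDR peaks were also the 5744 strongest pooled peaks, so the lists differ only in how far down the ranking they go. Within 500 bp of the gene an IDR summit was found for 45 of 290 genes, or 15.5% (95% Wilson interval 11.8 to 20.1%), and 4.17% of all positions of a 73-bp span on the arms had one. A pooled summit was found for 133 genes, or 45.9% (40.2 to 51.6%), against 18.2% of all positions. These 45 genes shared 27 distinct IDR summits at 24 loci, and the 133 genes shared 125 pooled summits at 70 loci. The intervals cover counting error only, and neighbouring genes that share a summit are not independent. With 1 group there is no condition to test, and the lists give no read counts, so the depth of each replicate is unknown.

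Each replicate's own list gave nearly the same share over its whole length and a different share among its strongest peaks. Among 30000 peaks, replicate 1 had a summit within 500 bp of 132 genes (45.5%) and replicate 3 of 135 genes (46.6%), and 122 genes were shared. Among the 5744 strongest peaks, replicate 1 had one at 28 genes (9.66%) and replicate 3 at 56 genes (19.3%), and 24 genes were shared. Of the 45 genes with an IDR summit, all 45 had a summit in both whole lists. Only 23 of them had one of the 5744 strongest peaks in both replicates. Over the 61 loci listed in both replicates, the signal of the strongest summit had a Spearman rho of 0.828, which is a description since loci are not replicates.

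Clustered tRNA genes had a summit more often than isolated ones. An IDR summit lay within 500 bp of 5 of 105 isolated genes (4.76%) and 40 of 185 clustered genes (21.6%), a difference of -16.9 percentage points (95% Newcombe interval -23.9 to -8.91). For pooled summits the shares were 30.5% and 54.6%, a difference of -24.1 points (-34.7 to -12.3). Counting each locus once, 19 of 69 clustered loci (27.5%) and 5 of 105 isolated loci had an IDR summit. The difference had the same sign in each replicate: among the strongest 5744 peaks it was -7.67 points (-13.8 to -0.537) in replicate 1 and -19.8 points (-27.4 to -11.1) in replicate 3. A longer locus has a wider window, and the part of window width in the difference was not tested. Per Mb of window there were 44.2 IDR and 371 pooled summits at isolated genes, and 183 and 690 at clustered loci. The IDR number did not rise steadily with size, at 173 for loci of 2 genes, 236 for 3 and 149 for 4 or more.

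The arms contributed unequally to this difference. Of the 290 genes, 98 lay on 2R, 79 on 3R, 48 on 3L, 41 on 2L, 24 on X and 0 on 4. Of the 69 clustered genes on 2R, 34.8% (24.6 to 46.6%) had an IDR summit and 72.5% (61.0 to 81.6%) a pooled one, whereas none of the 14 clustered genes on X had either, which allows a share of up to 21.5%. On 2L the pooled shares were 42.9% of isolated and 40.0% of clustered genes, and on 3L they were 17.6% and 48.4%. On 3R they were 25.0% and 54.9%. Without 2R the difference for IDR summits was -8.53 points with an interval that included 0 (-16.6 to 0.554), and for pooled summits it was -16.3 points (-29.0 to -2.36).

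The share of genes with an IDR summit showed no steady trend with cluster size beyond a pair. An IDR summit lay near 19.8% of genes in pairs, 31.2% (19.9 to 45.3%) of genes in loci of 3 and 15.7% (8.17 to 28.0%) of genes in loci of 4 or more, and the intervals of neighbouring sizes overlapped. Signal here means the authors' value for a peak, which can be compared within a list only. The strongest pooled summit of a locus had a median signal of 76.96 at the 32 isolated loci that had one, 150.1 at pairs, 187.7 at loci of 3 and 199.8 at the 6 larger loci. These medians rose with size, but so did the window searched. Its median was 1413 bp for pairs, 1818 bp for loci of 3 and 2504 bp for loci of 4 or more.

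**Figure D1:**
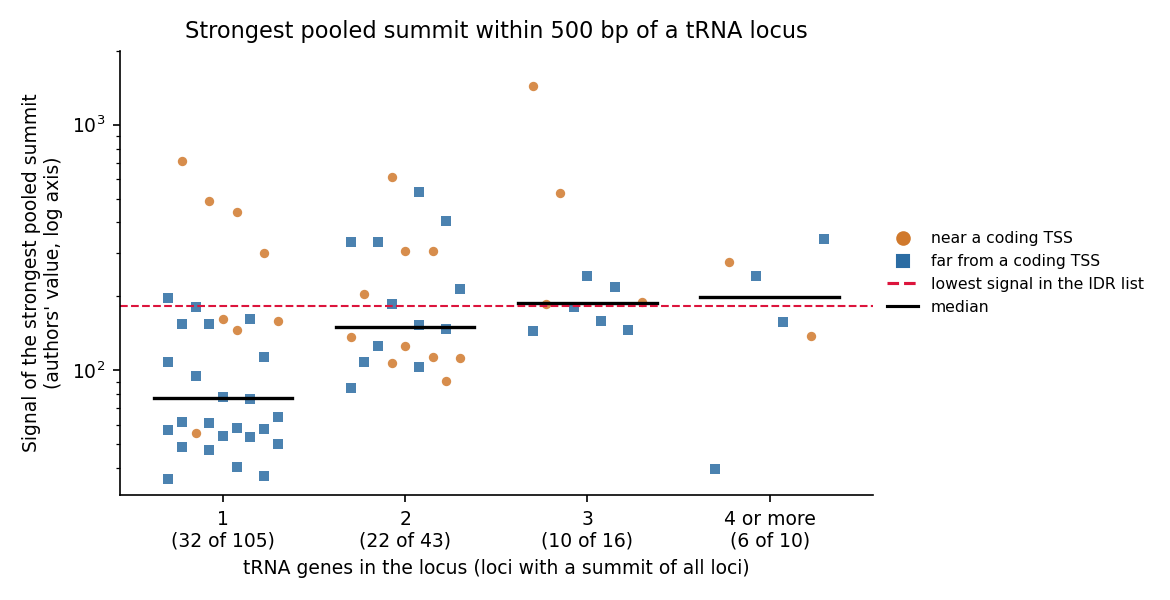
Signal of the strongest pooled summit within 500 bp of each tRNA locus (log axis), by the number of tRNA genes in the locus; circles are loci near a protein-coding TSS, squares loci far from one, black bars medians and the dashed line the lowest signal in the IDR list. The 32 isolated loci with a summit centre on 76.96, and most lie below the dashed line at 183.6.

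Genes near a protein-coding TSS had an IDR summit more often than genes far from one. The IDR shares were 22 of 80 near genes (27.5%) and 23 of 210 far genes (11.0%), a difference of 16.5 points (6.64 to 27.8). The background differs in the same direction, since an IDR summit lay within 500 bp of 13.0% of near positions and 1.85% of far positions. For pooled summits the shares were 53.8% and 42.9%, a difference of 10.9 points whose interval included 0 (-1.89 to 23.2), over backgrounds of 31.6% near and 14.7% far. In replicate 3 alone the whole-list difference was 16.8 points (3.98 to 28.9) and in replicate 1 it was 11.4 points (-1.41 to 23.7). The interval of the pooled difference excluded 0 in 5 of 13 alternatives.

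Splitting the genes by both properties separated 4 kinds of setting. Isolated far genes had an IDR summit in 1 of 78 cases (1.28%), at the level of far positions in general, but a pooled summit in 24 of 78 (30.8%), above the 14.7% of far positions. Over all isolated genes, near and far, the pooled share differed by copy number. It was 3 of 27 for genes of 1 copy (11.1%, 3.85 to 28.1%). For genes with identical copies it was 29 of 78 (37.2%, 27.3 to 48.3%). The part of copy number in the excess was not tested. Isolated near genes had an IDR summit in 4 of 27 cases (14.8%) and a pooled one in 8 of 27 (29.6%), both close to the level of near positions. Clustered far genes had an IDR summit in 22 of 132 cases (16.7%), against 1.85% of far positions, and a pooled one in 66 of 132. Clustered near genes reached 34.0% and 66.0%. Among far genes alone, isolated minus clustered was -15.4 points (-22.7 to -7.59) for IDR summits, so the difference was also present away from coding TSSs.

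**Figure D2:**
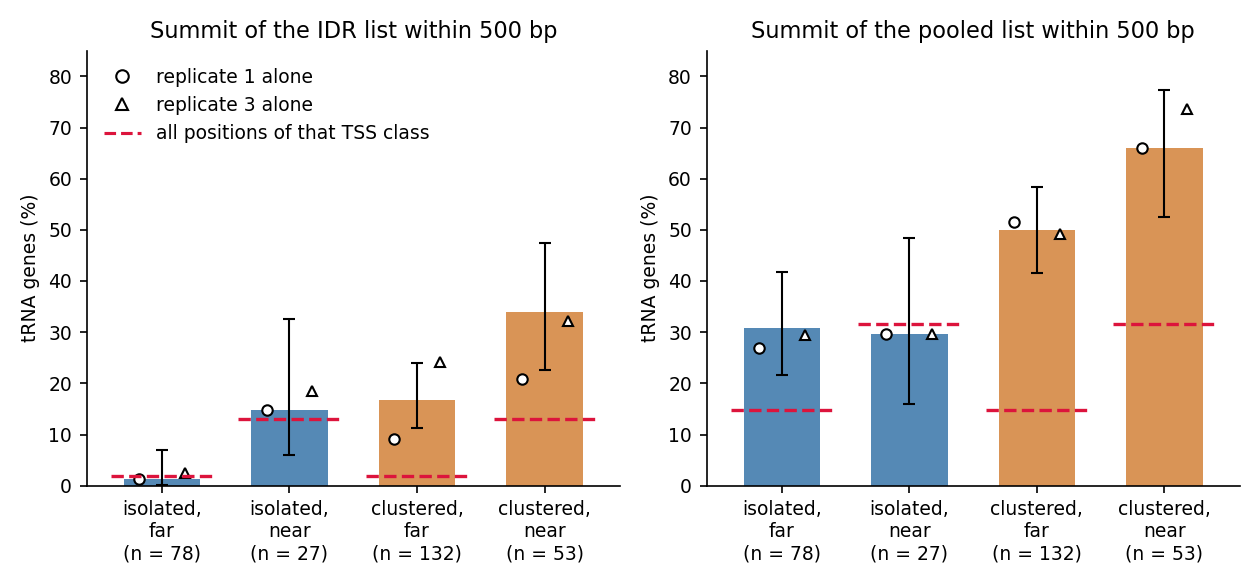
Share of tRNA genes (percent) with a summit within 500 bp, in the IDR list (left) and the pooled list (right), by clustering and by distance to a coding TSS; bars are shares with 95% Wilson intervals, open symbols the replicates alone (their 5744 strongest peaks on the left, whole lists on the right) and dashed lines all positions of that TSS class. Isolated far genes stand at 1.28% on the left and 30.8% on the right, and clustered genes stand above their dashed line in both panels.

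The signal showed the same split, which is not a separate result, since the IDR list holds the strongest pooled peaks by this value. A clustered locus also takes its strongest summit from a wider window, with a median of 1594 bp against 1073 bp for isolated loci. Over the 24 loci with an IDR summit the strongest summit had a median signal of 306.0, from 185.5 to 1431, close to the list's median of 293.5. Among pooled summits, the 24 isolated far loci had a median signal of 61.41, below the list's median of 77.71, and 9 of 24 lay above that median. The 22 clustered far loci had a median of 169.7, and 21 of 22 lay above it.

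The distance of summits to coding promoters differed between near and far genes, as the definition of the classes requires. The 14 distinct IDR summits within 500 bp of a far gene lay at a median of 138 bp from the tRNA gene and 3010 bp from the nearest coding TSS, and the limits that define them leave no room for a coding TSS to be the nearer one. Of the 14 IDR summits at near genes, 11 were nearer to the tRNA gene and 3 nearer to the coding TSS, with medians of 88.0 and 388 bp. At near genes, signal from a coding promoter and signal from the tRNA gene cannot be told apart with fragments of 200 to 800 bp.

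In the pooled list more summits lay upstream of the tRNA gene than downstream. Position was read along the direction of transcription, and isolated genes were used since clustered genes share summits. Of the 42 pooled summits at 32 isolated genes, 25 lay upstream of the 5′ end, 2 inside the gene and 15 downstream, and 14 lay over 100 and up to 300 bp upstream. Replicate 1 gave a like split, with 25 upstream, 1 inside and 16 downstream. Replicate 3 gave 19 upstream, 5 inside and 15 downstream, so the excess upstream was smaller there. A gene of median length takes up 6.80% of the 1073-bp window, and the share of summits inside the gene was 4.76% in the pooled list, 2.38% in replicate 1 and 12.8% in replicate 3. Among isolated far genes the split was 20, 2 and 10 in the pooled list, 21, 1 and 8 in replicate 1, and 12, 5 and 12 in replicate 3, where the upstream and downstream sides were equal.

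**Figure D3:**
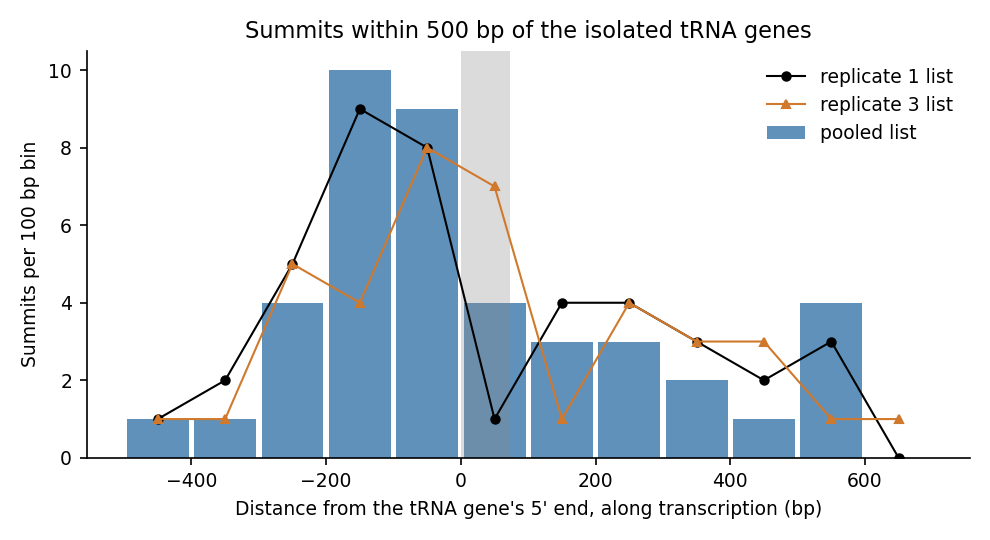
Number of summits per 100 bp bin by distance from the 5′ end of the isolated tRNA gene, along transcription (negative is upstream); bars are the pooled list, lines the lists of replicates 1 and 3, and the grey band the median gene length of 73 bp. Of the 25 upstream summits of the pooled list, 23 lie within 300 bp of the gene.

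At clusters, summits lay both within the stretch from the first to the last gene and outside it. Of 83 pooled summits at clustered loci, 44 lay upstream of the nearest gene, 9 inside a gene and 30 downstream, and 52 lay within the stretch, those inside genes included. Of the 22 IDR summits there, 13 were upstream, 1 inside and 8 downstream, and 13 lay within the stretch. Among the 5744 strongest peaks, 6 of 16 summits lay within it in replicate 1 and 17 of 28 in replicate 3. The share of gaps between neighbouring genes that held a pooled summit was 44.0% (26.7 to 62.9%) of the 25 gaps between divergent genes, 36.2% (25.9 to 48.0%) of 69 between tandem genes and 22.7% (10.1 to 43.4%) of 22 between convergent genes. The same order was found in replicate 1, with 40.0, 29.0 and 18.2%, and in replicate 3, with 40.0, 36.2 and 18.2%. The intervals overlap, and median gap lengths were 213, 269 and 224 bp. The far gene whose IDR summit lay inside the gene was tRNA:Glu-CTC-2-1, in a locus of 4 Glu genes on 2R, with a signal of 203.7.

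The strongest summit beside any tRNA gene lay at tyrosine tRNA genes. It was 228 bp upstream of tRNA:Tyr-GTA-1-8, the last of 3 Tyr-GTA genes on 3R in introns of CG8036 and p, and 216 bp from a coding TSS. Its signal was 1431, rank 122 of 5744 in the IDR list, with 797.3 in replicate 1 (rank 133) and 642.2 in replicate 3 (rank 106). The other IDR summit of this locus lay 99 bp upstream of tRNA:Tyr-GTA-1-6 with a signal of 222.1. A further pair, tRNA:Tyr-GTA-1-4 and tRNA:Tyr-GTA-1-5, shared an IDR summit of 187.0. These 5 Tyr genes on 3R had an IDR summit, and the other 5, on 2L and X, had no pooled summit.

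Several of the next loci also lay near a coding TSS. At tRNA:Phe-GAA-1-2 on X the signal was 711.8, with 420.6 in replicate 1 and 293.7 in replicate 3, but the summit lay 346 bp past the gene's 5′ end and only 26 bp from a coding TSS. RpL17, a ribosomal protein gene, has the coding TSS nearest to this tRNA gene. At tRNA:Trp-CCA-2-2 on 2R, paired with a Gly-GCC gene, the signal was 612.6 and the summit lay 3 bp from a coding TSS. At tRNA:Val-CAC-2-5, in an intron of Naam, it was 488.5, with the summit 473 bp past the 5′ end. tRNA:Leu-TAA-2-1 had a summit 224 bp upstream with 440.9, and 266.2 and 180.7 in replicates 1 and 3. tRNA:Ser-AGA-2-4 had one 72 bp upstream with 300.4, at the same place in both replicates. The summits at the Val-CAC, Leu-TAA and Ser-AGA genes lay 426, 351 and 684 bp from a coding TSS. They were nearer to the tRNA gene, at 401, 224 and 72 bp.

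Other strong loci lay away from coding promoters. A pair of Arg-CCT genes on 2R had a signal of 531.6, with 367.4 in replicate 1 and 166.6 in replicate 3, at 192 bp upstream of tRNA:Arg-CCT-1-2 and 4443 bp from a coding TSS. A pair of Thr-AGT genes had 403.7 at 134 bp upstream of tRNA:Thr-AGT-1-2, and its summit lay 2395 bp from a coding TSS. The locus of 4 Glu genes had 342.4 beside tRNA:Glu-TTC-1-5, at 13242 bp from a coding TSS. The Ala-TGC pair had 332.6 beside tRNA:Ala-TGC-2-1 and the Ser-TGA pair 332.3 beside tRNA:Ser-TGA-2-1. All 5 were clustered loci on 2R. The remaining loci among the 15 strongest had signals from 276.1 to 525.8: His-GTG-1-3 (525.8), Arg-TCT-1-1 (306.7), Gln-TTG-1-3 (305.4) and Ile-AAT-1-3 (276.1), all near a coding TSS.

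The isolated far genes had 1 IDR summit among 78, and it was weak. tRNA:Trp-CCA-2-5, in an intron of Pu, had a summit 141 bp upstream with a signal of 196.2, rank 5269. Its signal was 111.4 in replicate 1 (rank 5767) and 84.21 in replicate 3 (rank 5842). The next strongest isolated far genes had pooled summits below the IDR list's lowest signal of 183.6. They were tRNA:Leu-CAA-2-3 (181.6), tRNA:Ile-AAT-1-2 (161.1), tRNA:Leu-TAA-4-1 (155.1) and tRNA:Asp-GTC-1-6 (154.4, in an intron of Sema1a). Their summits lay 99, 24, 124 and 271 bp upstream. The near-copies tRNA:Leu-TAA-2-1 and tRNA:Leu-TAA-4-1 thus had signals of 440.9 and 155.1. In each replicate's own list the strongest summit at an isolated far gene lay at another gene, tRNA:Phe-GAA-1-3. Its signal was 149.6 in replicate 1 (rank 3676) and 95.05 in replicate 3 (rank 4902). These summits lay 272 and 226 bp upstream. In the pooled list this gene had only 48.82 (rank 23168), at 76 bp upstream. The cause of this difference was not tested.

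Long clusters were not uniformly marked. The 7 genes inside ATP8A on 2R (5 Ile-AAT and 2 Leu-CAA) all had a pooled summit, and 1 had an IDR summit, of 276.1. The 7 Arg-TCG and Ser-CGA genes on X, tRNA:Arg-TCG-2-1 among them, had no summit in the IDR or pooled list or in the list of either replicate. The same was true of 1 Asn-GTT and 5 Arg-ACG genes in a locus of 6 on 3R. The 6 Cys-GCA and Lys-CTT genes inside Cht7 on 3L had 1 IDR summit, of 242.2 and within 500 bp of 4 of them, with 107.1 in replicate 1 (rank 6053) and 143.5 in replicate 3 (rank 2425). The 5 genes inside EcR on 2R had at most 39.82 in the pooled list.

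Amino acid families differed in the share of genes with a summit, but each family is a small number of loci. Among anticodon families of at least 6 genes, Glu-TTC had a pooled summit at 6 of 6 genes and Ile-AAT at 8 of 9, whereas Gly-TCC, Lys-TTT and Thr-TGT had none at 0 of 6 each. Trp-CCA and Tyr-GTA had the highest IDR shares besides Glu-TTC, with 4 of 8 and 5 of 10 genes. The Leu genes had a pooled summit at 16 of 22 (72.7%), the same count in each replicate's whole list, but only 1 IDR summit, with pooled signals from 53.83 to 440.9 and a median of 153.1. The Gly genes had a pooled summit at 3 of 20. No test was made between families, because families differ in clustering, near TSSs and copy number, and their genes share loci.

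**Figure D4:**
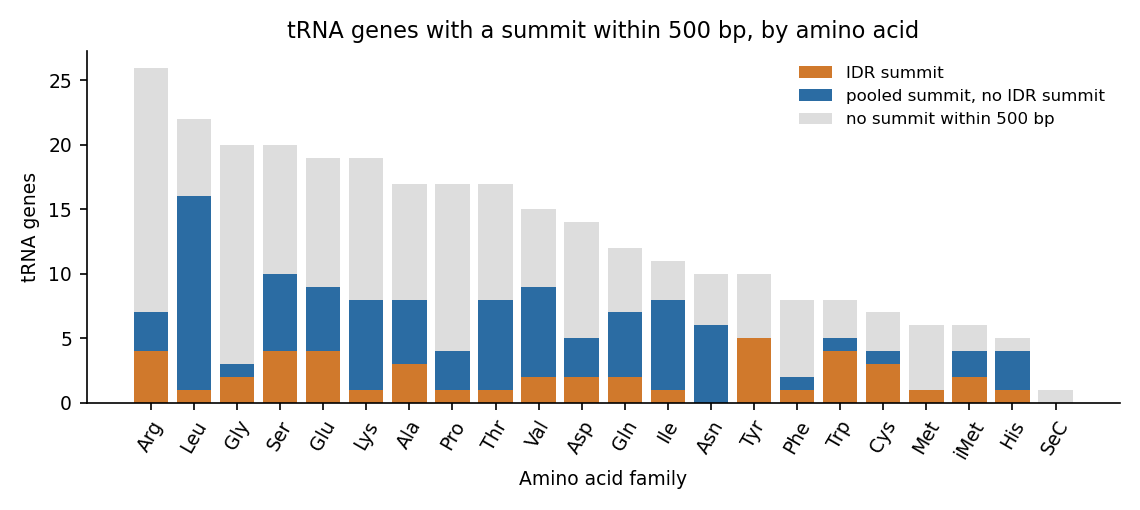
Number of tRNA genes of each amino acid family with an IDR summit (orange), a pooled summit but no IDR summit (blue) or no summit within 500 bp (grey). Leu has 16 of 22 genes with a pooled summit, of which 1 has an IDR summit, and Gly has 3 of 20.

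Initiator methionine tRNA starts translation at the first codon. Of its 6 genes, tRNA:iMet-CAT-1-1 and tRNA:iMet-CAT-1-2 on 2R shared an IDR summit of 241.6, which lay 306 bp from the first and 21 bp past the end of the second, with 95.46 in replicate 1 and 139.7 in replicate 3. tRNA:iMet-CAT-1-4 and tRNA:iMet-CAT-1-5 on 3L had a pooled summit of 147.1. tRNA:iMet-CAT-1-3 and tRNA:iMet-CAT-2-1 had no pooled summit within 500 bp. Neither had the single selenocysteine gene, tRNA:SeC-TCA-1-1, whose nearest pooled summit lay 918 bp away.

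The 500 bp limit left out some genes with a summit a little further away. An IDR summit lay over 250 and up to 500 bp away for 13 genes, and for 14 more the nearest one lay over 500 and up to 1000 bp away. The genes with the most distant IDR summits inside the limit were tRNA:Arg-ACG-1-1 at 433 bp and tRNA:Gly-GCC-1-9 at 459 bp, and those just outside were tRNA:Val-AAC-2-2 at 546 bp and tRNA:Ile-AAT-1-9 at 555 bp. A summit lay inside the gene for 1 gene in the IDR list and 11 in the pooled list, and for 57 further genes the nearest pooled summit lay 1 to 100 bp away.

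Words known to be bound by the Hairy/E(spl) family were found at few summits, both at tRNA genes and over all summits. Words were sought on both strands within 100 bp of the summit. CACGTG, an E-box, was found at 1 of 27 IDR summits beside tRNA genes (3.70%, 0.657 to 18.3%) and at 4.07% of all IDR summits. CACGCG was also found at 1 of 27, with the same interval, against 8.10%. At the 125 pooled tRNA summits the shares were 3.20% and 6.40%, against 3.35% and 5.91% of all pooled summits. The tRNA genes themselves hold CACGTG in all 7 Val-CAC genes and CACGCG in 36 genes (14 Asp-GTC, 14 Gly-GCC, 6 Ser-GCT and 2 Val-AAC), and pooled summits lay near 4 of 7 and 13 of 36 of them. The absence of a word says only that these letters were not in the window. GTTCNANNC, the B box word, was found at 41.6% (33.3 to 50.4%) of the pooled tRNA summits and 6.36% of all, and since the genes hold this word it gives the distance to the gene and nothing more. The insulator and core promoter words TATCGATA, GGTCACACT and GAGAGAG were found at 1, 0 and 0 of the 27 IDR summits, against 3.80%, 2.04% and 6.46% of all.

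RNA genes outside the tRNA set that were picked by name as polymerase III genes were marked in part. They were the U6, U6atac and 7SL genes, RNaseMRP:RNA and RNaseP:RNA, and which polymerase transcribes each was not checked. Of these 8 genes, 3 had an IDR summit: RNaseMRP:RNA with 211.1, and snRNA:U6:96Ab and snRNA:U6:96Ac, which shared one of 327.5. Beside this, 4.17% of all positions had one, for a 73-bp span that is shorter than these genes. The 7SL and U6atac genes had none. None of the 100 5S rRNA genes had an IDR summit, which allows a share of up to 3.70%, and 1 had a pooled one, but their near-identical tandem copies may limit how reads are assigned. Measured from the gene's 5′ end alone, so that gene length plays no part, the pooled share was 44.8% (39.2 to 50.6%) for tRNA genes, 22.3% (17.7 to 27.6%) for snoRNA genes and 22.7% (18.0 to 28.2%) for microRNA genes. Protein-coding genes had 41.8%. For IDR summits the share was 15.2% (11.5 to 19.8%) for tRNA genes, 5.00% for microRNA genes and 22.2% for protein-coding genes, and the interval of snoRNA genes (6.99 to 14.2%) overlapped that of tRNA genes. Of 15 genes encoding the polymerase III machinery, 7 had an IDR summit within 500 bp of any of their coding TSSs. That measure is wider than the 5′ end used for the 22.2% of protein-coding genes, and no share of all coding genes was measured that way. The highest signals were at Polr3E (970.6), Bdp1 (944.7) and Brf (852.5). Trf, Maf1, Polr3I and Polr3K had no summit in the IDR or pooled list or in the list of either replicate.

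The gap between the replicates' strongest peaks lay mostly at clustered genes with identical copies. Genes of 1 copy had an IDR summit in 19.2% of cases and genes of several copies in 14.7%, a difference of 4.52 points whose interval (-5.31 to 17.8) included 0. Among clustered genes of several copies, 8.75% (5.28 to 14.2%) had one of the 5744 strongest peaks of replicate 1 and 25.6% (19.5 to 32.9%) one of replicate 3. Among clustered genes of 1 copy the shares were 36.0% and 32.0%. Genes of a locus share summits, so these intervals are too narrow and the gap is smaller by locus. Clustered genes of several copies had such a peak at 10 of 63 loci in replicate 1 and 18 of 63 in replicate 3. Those of 1 copy had one at 6 and 5 of 17 loci. Of the 32 genes with a strongest peak in replicate 3 alone, 30 were clustered and 30 had an identical copy. Over all 290 genes, 185 were clustered and 238 had an identical copy. Counted by locus, 11 loci had a strongest peak in replicate 3 alone, and 9 of them were clustered. Examples were the locus of tRNA:iMet-CAT-1-1 and tRNA:Glu-TTC-1-4 on 2R, Leu-CAG on 3L and Cys-GCA with Lys-CTT on 3L. At the shared iMet summit the replicate 1 rank was 7056 and the replicate 3 rank 2552. How long the reads were, and how reads matching several copies were treated, is not stated in the labels or files, and their part in this difference was not tested.

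**Figure D5:**
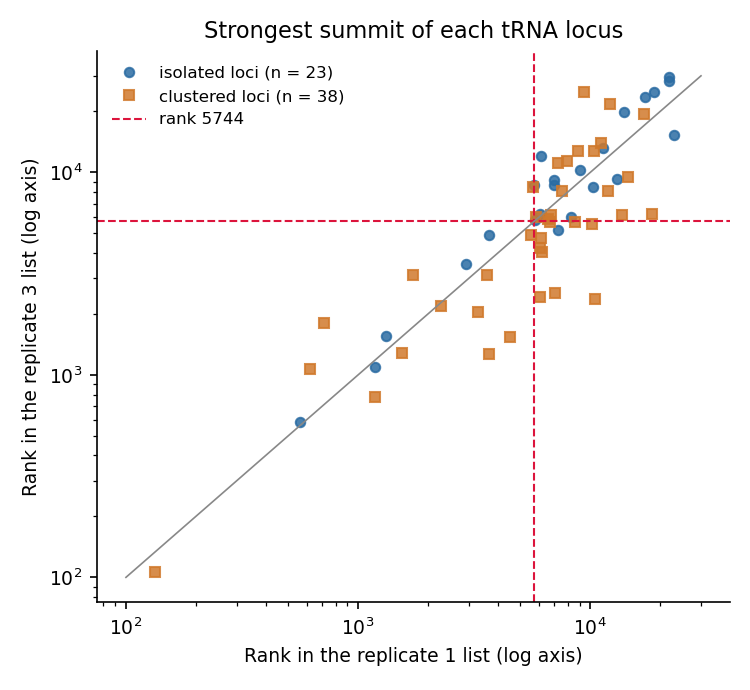
Rank of the strongest summit within 500 bp of each tRNA locus in the lists of replicate 1 and replicate 3 (log axes; rank 1 is strongest), for the 61 loci listed in both; dashed lines mark rank 5744. The Tyr-GTA locus ranks 133 and 106, and 9 clustered loci and 1 isolated locus rank within 5744 in replicate 3 and beyond it in replicate 1.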

How the data were processed

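Peak lists from 2 biological replicates of 1 group were used, in narrowPeak format on dm6. Per the labels and the deposited notes on the lists, each list came from alignments and a control, which was not analysed here, and the pooled list from both replicates. Neither the aligner nor its treatment of reads matching several places was given in the sources used here, nor were the caller of the peaks and the threshold on IDR. The signal is the authors' deposited value per peak, not scaled between lists. The deposited −log10 q-value was capped and not used. The deposited offset gave the summit, moved back to the peak's end where it lay past it.

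Genes and TSSs came from Ensembl release 115, and sequence from RefSeq on the same assembly. The distance of a gene was 0 where the summit lay inside it and otherwise that to its nearer end. For the shares of each replicate alone, its list was cut to its 5744 strongest peaks beside the IDR list and used whole beside the pooled list. Background is the share of all placements of a span of the median gene length, an exact count. Shares carry 95% Wilson and differences 95% Newcombe intervals. Python 3.11.15 with numpy 2.4.6, scipy 1.17.1 and matplotlib 3.10.9 was used, and the distance, clustering and interval steps were checked on planted data. No p-value was computed.

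Named genes were those at the 15 loci of highest IDR signal, the strongest isolated near and far genes (5 each), the 5 largest loci, all iMet and SeC genes, the anticodon families of 6 or more genes with the highest and lowest shares, far genes with an IDR summit inside, and those at the 500 bp limit. tRNA:Phe-GAA-1-3 was named as the strongest isolated far gene in each replicate's own list. Members and lists were chosen with earlier results of these data known. Alternatives were other limits and definitions, the strongest 50% of each list, peak overlap in place of summits, each replicate alone, genes of 1 copy, loci in place of genes, and leaving out 2R, which was added after seeing the data.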

Additional observations from a re-analysis of the deposited data

How the results depend on the processing

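No result changed sign under the alternatives run, except that near minus far for pooled summits was -1.14 points among isolated genes alone (main value 10.9, intervals including 0 in both). For the IDR share (15.5%), a limit of 250 bp gave 11.0%, a limit of 1000 bp 20.3%, the stronger part of the list 6.55%, peaks that overlap the gene 6.90% and leaving out arm 2R 10.4%, and single replicates gave 9.66 to 19.3%. Isolated minus clustered for IDR summits (-16.9 points) was -4.30 with the stronger part of the list, where the interval included 0 (-9.66 to 2.10), -6.33 with overlap, -32.3 for genes of 1 copy, -8.53 without 2R, and -19.8 to -7.67 for single replicates. The pooled share (45.9%) was 38.6% at 250 bp, 38.3% in the stronger part, 35.2% with overlap, 38.5% for genes of 1 copy and 37.5% without 2R, and 45.5 to 46.6% in single replicates. Isolated minus clustered for pooled summits (-24.1 points) was -36.1 in the stronger part and -56.9 for genes of 1 copy. Near minus far for pooled summits (10.9 points) had an interval above 0 for genes of 1 copy (35.3, 5.32 to 58.1), in the stronger part (19.6, 6.98 to 31.8), with near set to 2000 bp (20.6, 9.04 to 31.5), without 2R (15.4, 0.544 to 30.0) and in replicate 3 alone. Near minus far for IDR summits stayed within the main interval in all 13 alternatives, though the interval included 0 in 2 of them, with near set to 2000 bp (7.88, -0.558 to 16.8) and for genes of 1 copy (22.6, -1.44 to 49.1). The median signal of 306.0 was 141.6 to 199.2 in the replicates' own lists, which are not on one scale. The cause of these shifts was not tested. No paired analysis was possible because there is 1 group. Lists without read counts leave depth unknown, and 2 replicates of 1 line give no measure of variation between conditions.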

Other observations

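The 16 tRNA genes with an annotated intron had an IDR summit in 5 cases (31.2%, 14.2 to 55.6%) and a pooled one in 8, and all 5 were Tyr-GTA genes on 3R. Clusters whose genes serve more than 1 amino acid (70 genes at 21 loci) had a pooled summit at 64.3% of genes (52.6 to 74.5%), and clusters of 1 amino acid (115 genes at 48 loci) at 48.7% (39.8 to 57.7%). For IDR summits the shares were 30.0% (20.5 to 41.5%) and 16.5% (10.8 to 24.4%). In the 5744 strongest peaks of replicate 1 the order was the other way, with 8.57% and 14.8%, and in those of replicate 3 it was 32.9% and 22.6%. The 19 genes without the B box word had a pooled summit in 12 cases (63.2%, 41.0 to 80.9%), and the 271 genes with it in 121 (44.6%, 38.8 to 50.6%). The IDR shares were 21.1% (8.51 to 43.3%) and 15.1% (11.4 to 19.9%). In the 5744 strongest peaks of replicate 1 the order was the other way, with 0 of 19 and 10.3%. In those of replicate 3 the shares were 21.1% and 19.2%. The intervals overlap, and genes of a locus share summits.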
